A study of Ovis aries with 6 samples.

Results

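Transcripts of 9 epithelial genes were followed in sheep tissue labelled hypothalamus. The genes were EPCAM, the cadherin gene CDH1, the keratin genes KRT8, KRT18 and KRT19, and the claudin genes CLDN3, CLDN4, CLDN7 and CLDN9, picked by name from the 26067 features of the deposited tables, which hold all 9. They were picked with the difference between the groups already known, so their HP and LP values are a description. Calls that the fit over all genes made for them are reported as part of that description and support nothing, and no p value is given for them. The HP group was 3 healthy small-tailed Han sheep, the breed that the submitters class as highly reproductive. The LP group was 3 healthy Wadi sheep, classed as less reproductive, and both groups were of similar body composition according to the design text. Breed and reproductive class are the same split here, and the sources used here do not give age, sex or breeding state. RNA was converted to full-length cDNA, amplified by PCR and read on a Nanopore instrument. Columns of the tables were assigned to samples through their number, since their letter is not the one in the sample titles, and each statement on HP or LP depends on this assignment.

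Epithelial cells are sheets of cells held together by adherens junctions, tight junctions and desmosomes. E-cadherin, the product of CDH1, joins neighbouring cells at the adherens junction, claudins form the strands that seal the tight junction, and EPCAM is a surface protein of most simple epithelia that associates with claudins. Keratins 8, 18 and 19 are the intermediate filament proteins of simple epithelia, where a type II keratin such as keratin 8 pairs with a type I keratin such as keratin 18 or 19. Neurons and glia of the adult brain largely lack these proteins, whereas the endocrine cells of the anterior pituitary and the epithelium of the choroid plexus carry several of them.

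The libraries held 1981644 to 2732911 counts, and the 3 counts that a listed 0 allows stand for 1.02 to 1.59 CPM (counts relative to TMM-scaled library totals). Values of 3 libraries of a group are given in the order of replicates 1, 2 and 3. The libraries stood apart by group over all genes. Of 13078 genes with enough counts for a test, 51.2% passed an adjusted p of 0.05 between HP and LP, with 24.1% higher in LP and 27.1% higher in HP. Adjusted p values here and further on come from the quasi-likelihood test of edgeR after Benjamini-Hochberg adjustment over these genes. Of 13 defining hypothalamic genes, 6 were at 0 in all 6 libraries (HCRT, GNRH1, KISS1, NKX2-1, RAX and FEZF1), and the 13 together reached 114, 103 and 15.9 CPM in LP, 93.7% of it SIX3, and at most 1.02 CPM in HP. In contrast, 18 anterior pituitary genes, 83.5% of whose level was PRL, summed to 149638, 376139 and 49513 CPM in LP replicates 1, 2 and 3, and to 51.3 to 139.6 CPM in HP. PRL and TTR, the choroid plexus gene, are given library by library after their values were seen. TTR stood at 4056 CPM in HP replicate 3 and 7671 CPM in LP replicate 3, and at 5.70 to 104 CPM in the other libraries. In these bulk samples a smaller number of epithelial cells and less RNA per epithelial cell cannot be told apart.

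Every one of the 9 genes was higher in CPM in each LP library than in each HP library. For KRT18 and CLDN4 the highest HP and the lowest LP library had equal counts, and only the scaling of the libraries set them apart. For comparison, 26.4% of all features with a count had their LP values wholly above their HP values. Of the 9 genes, 5 passed the filter on low counts (EPCAM, CDH1, KRT8, KRT19 and CLDN9), and these 5 were called higher in LP, where the share of all genes tested was 24.1%. Of these 5, CDH1, KRT8, KRT19 and CLDN9 passed the filter through their LP counts, and all were picked on this contrast, so nothing is read from these shares. The other 4 (KRT18, CLDN3, CLDN4 and CLDN7) had too few counts in the third LP library or in LP as a whole. The fitted differences of the 5 genes, HP minus LP on the log2 scale, had a median of -4.47, which describes the choice of genes as much as the groups. The median over all genes tested was 0.02.

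**Figure D1:**
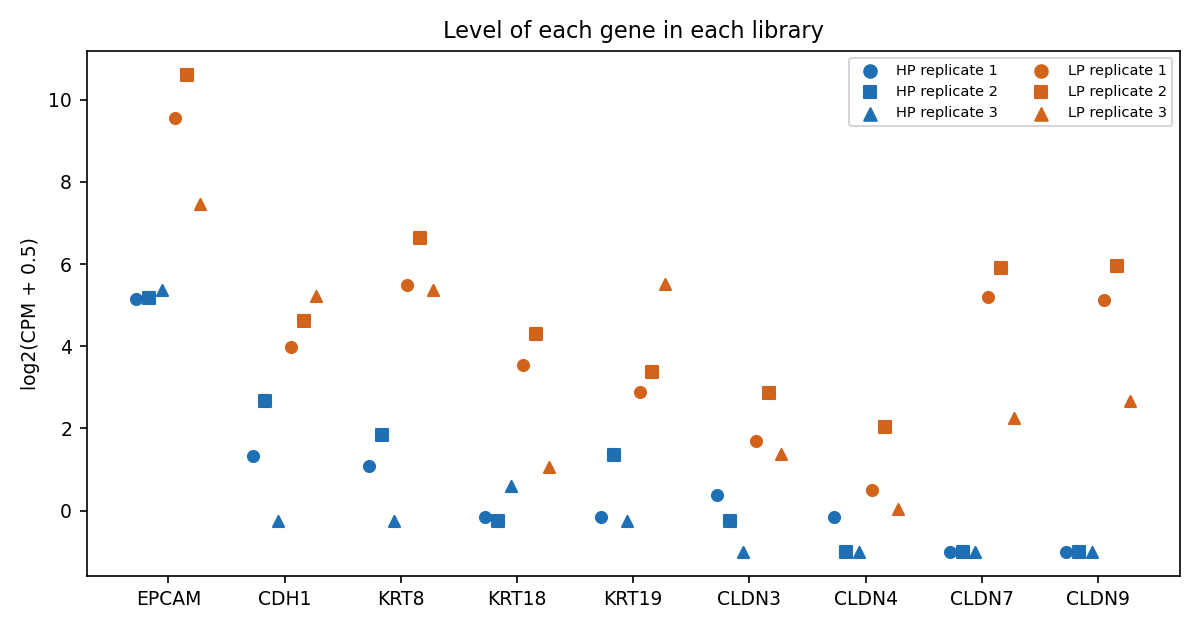
Level of the 9 genes in the 6 libraries, as log2 of CPM plus 0.5 (y axis), with HP in blue, LP in orange and symbols for the replicates. In each gene the 3 LP points lie above the 3 HP points; LP replicate 3 is the lowest LP point for 7 genes and the highest for CDH1 and KRT19.

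EPCAM was the most abundant of the 9 genes and the only one with a steady level in HP. The HP libraries held 87, 104 and 121 EPCAM counts, or 35.2, 35.7 and 41.1 CPM. The LP libraries held 1630, 3008 and 332, or 751, 1559 and 176 CPM. The HP libraries thus lay close together at 37.3 ± 3.26 CPM (SD, n = 3), while the LP libraries spread widely around 828 ± 695 CPM (SD, n = 3), with replicate 2 high and replicate 3 low. The fitted fold was 22.2 in favour of LP, and its log2 value of -4.47 was -3.69 without LP replicate 2 and -5.08 without both libraries high in TTR (replicate 3 of HP and of LP), an alternative chosen after seeing the data.

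CDH1, which encodes the calcium-dependent adhesion protein E-cadherin, counted 5, 17 and 1 in HP against 33, 46 and 70 in LP. The LP libraries stood at 15.2, 23.8 and 37.1 CPM, while HP averaged 2.73 ± 2.82 CPM (SD, n = 3), for a fitted fold of 9.06 and a log2 difference of -3.18. HP replicate 2 held most of the HP counts, and without it the log2 difference was -4.41. Without HP replicate 1 it was -3.02 and the call was lost, and on the log2(TPM + 1) scale, which understates changes of low genes, it was -1.35. Without both libraries high in TTR it was -2.32. In LP, CDH1 was highest in replicate 3, the library in which EPCAM was lowest. CDH2, the N-cadherin gene of neural tissue, was singled out after its values were seen. It counted 708, 816 and 628 in HP against 250, 451 and 233 in LP, and its log2 difference of 0.72 missed the threshold (edgeR adjusted p = 0.0943).

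Among the keratin genes, KRT8 was the most abundant. It counted 4, 9 and 1 in HP against 97, 189 and 77 in LP, or 1.68 ± 1.38 CPM (SD, n = 3) against 61.1 ± 31.9 CPM (SD, n = 3). The lowest LP library held 40.8 CPM and the highest HP library 3.09 CPM, so the groups were well separated. The fitted fold was 35.3 (log2 -5.14, or -5.94 without HP replicate 2).

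KRT18, which encodes the usual type I partner of keratin 8, was scarcer. It counted 1, 1 and 3 in HP against 24, 37 and 3 in LP, and the summed level in LP was 17.8 times that in HP (95% counting interval 7.24 to 56.7), or 28.8 times without HP replicate 3 and 11.1 times without LP replicate 2. HP replicate 3 and LP replicate 3 held the same 3 counts, and the scaling of the libraries put the latter higher, at 1.59 against 1.02 CPM. The deposited annotation also names 2 loci as KRT18-like, LOC101115571 and LOC105609000, and whether reads were divided among the 3 loci was not tested. Together these loci counted 6, 8 and 6 in HP against 2, 2 and 2 in LP, a ratio of 0.417 whose 95% counting interval of 0.137 to 1.08 includes equal levels. With their counts added, KRT18 stood at 2.83, 3.09 and 3.06 CPM in HP against 12.0, 20.2 and 2.65 CPM in LP. The groups then overlapped at LP replicate 3, and the ratio was 3.89 (95% counting interval 2.43 to 6.42).

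KRT19, the smallest type I keratin, counted 1, 6 and 1 in HP against 15, 19 and 86 in LP. LP replicate 3 alone held 73.1% of the CPM summed over the LP libraries. The fitted fold was 20.6, and the log2 difference of -4.36 was -3.11 without LP replicate 3, -5.61 without HP replicate 2 and -2.70 without both libraries high in TTR. KRT13, a keratin of stratified epithelia, was singled out after its values were seen because its LP counts of 4, 1 and 304 also lay mostly in replicate 3. Its HP counts were 3, 17 and 2.

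The claudin genes fell into a pair with ample counts in LP and a pair near the limit of detection. CLDN7, which encodes a claudin of simple epithelia known to bind EPCAM, had no count in HP and 78, 114 and 8 in LP. CLDN9, whose product is best known from the inner ear of mice, had no count in HP and 75, 118 and 11 in LP. Both were therefore highest in LP replicate 2 and about an order of magnitude lower in LP replicate 3. Set against a floor of 3 counts in each HP library, CLDN7 was at least 30.4-fold and CLDN9 at least 31.1-fold higher in LP. Without LP replicate 2 these bounds were 18.5 for CLDN7 and 18.6 for CLDN9.

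CLDN3 and CLDN4, a pair of claudin genes with no protein-coding gene between them in the RefSeq table of assembly ARS-UI_Ramb_v3.0, were much scarcer. CLDN3 counted 2, 1 and 0 in HP against 6, 13 and 4 in LP, an LP level 10.7 times that in HP (95% counting interval 3.22 to 55.5). This was 22.5 times without HP replicate 1, 6.89 times without HP replicate 3 and 6.84 times without LP replicate 2. CLDN4, known as a receptor of an enterotoxin of Clostridium perfringens, counted 1, 0 and 0 in HP against 2, 7 and 1 in LP. Its ratio of 13.9 has a 95% counting interval of 1.98 to 603, and HP replicate 1 and LP replicate 3 had the same single count. Without HP replicate 1 no HP count was left, and without LP replicate 2, HP replicate 2 or HP replicate 3 the ratio was 6.15, 9.04 or 8.99. In the same RefSeq table, KRT8 and KRT18 also have no protein-coding gene between them. In each LP library KRT8 exceeded KRT18, and CLDN3 exceeded CLDN4, in TPM.

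Deposited TPM values, scaled to transcript length by the authors, were used to set the 9 genes in order within LP. The order depends on this scaling. In summed LP counts EPCAM (4970) was followed by KRT8 (363), CLDN9 (204), CLDN7 (200) and CDH1 (149). In LP, EPCAM stood at 273, 496 and 51.4 TPM, above every other of the 9 genes in each library. It made up 81.5%, 83.4% and 65.0% of the TPM summed over the 9 genes in LP and 90.8% to 97.4% in HP. The shares of the 2 groups are not compared. TPM per count was higher in LP than in HP by 1.56 for EPCAM but by 2.35 for KRT8. CLDN7 came second with a mean of 28.5 ± 23.3 TPM (SD, n = 3) in LP, although its counts were close to those of CLDN9, which had 9.31 ± 7.48 TPM (SD, n = 3). The place of CLDN7 thus rests on the authors' scaling to transcript length, which was not checked. So do the rest of the order after EPCAM and all shares of summed TPM. KRT8 lay between CLDN7 and CLDN9 at 12.8 ± 6.69 TPM (SD, n = 3). After CLDN9 came KRT19 (5.55 ± 5.34), KRT18 (3.04 ± 2.47), CDH1 (1.89 ± 0.643), CLDN3 (1.23 ± 0.788) and CLDN4 (0.453 ± 0.445) as mean TPM with SD. EPCAM alone was separated from its neighbour in this order: its lowest LP library was above the highest of CLDN7, and every other neighbouring pair overlapped.

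**Figure D2:**
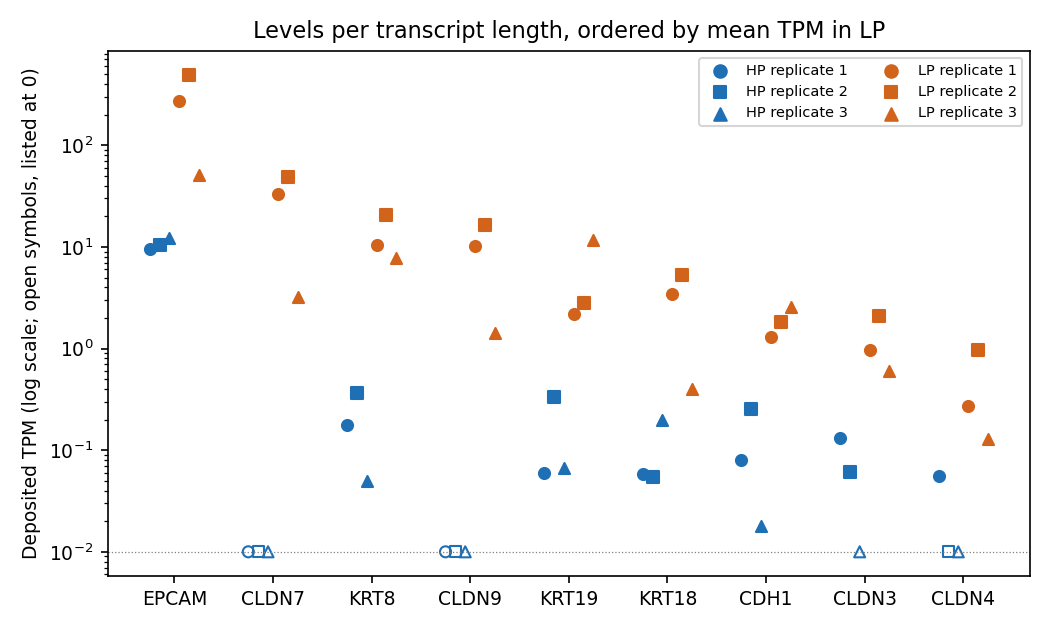
Deposited TPM of the 9 genes (y axis, log scale), ordered by mean TPM in LP, with HP in blue and LP in orange; open symbols mark libraries listed at 0. EPCAM spans 51.4 to 496 TPM in LP, and every other gene lies at or below 49.0 TPM.

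One count stood for more TPM in the LP libraries than in the HP libraries, by a factor of 2.35 in the median of 8245 genes with ample counts. Part of this factor is shared by CPM, since 3 counts stood for 1.38 to 1.59 CPM in LP and 1.02 to 1.21 CPM in HP. Only the rest enlarges TPM ratios beyond CPM ratios. The factor per count was 2.35 for CDH1, KRT8, KRT18 and KRT19 and 1.56 for EPCAM. The ratio of mean TPM was 64.9 for KRT8 and 25.4 for EPCAM. The ratio in summed CPM was 36.1 for KRT8 and 22.2 for EPCAM. On the log2(TPM + 1) scale the differences were -3.43 for KRT8 and -2.22 for KRT19, smaller than in the count fit. Levels between libraries are therefore given in CPM elsewhere in the text.

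Keratin composition differed among the LP libraries. The TPM of KRT8 was 3.04 and 3.84 times that of KRT18 in LP replicates 1 and 2 and 19.3 times in LP replicate 3. KRT18 exceeded KRT19 by factors of 1.57 and 1.91 in LP replicates 1 and 2, whereas KRT19 exceeded KRT18 by a factor of 29.2 in LP replicate 3. In LP replicate 3 KRT18 had only 3 counts, against 77 of KRT8 and 86 of KRT19. The KRT18-like loci had 2 counts there that are not included. The factors of 19.3 and 29.2 are thus imprecise, and no interval was taken for them. Both type I genes together had 0.538, 0.396 and 1.57 times the TPM of KRT8 in LP replicates 1, 2 and 3. The keratin genes made up 4.76% and 4.79% of the summed TPM of the 9 genes in LP replicates 1 and 2 and 25.1% in LP replicate 3, and the claudin genes 13.3%, 11.5% and 6.75%. HP libraries had 5 to 16 keratin counts and 0 to 3 claudin counts each, too few for such shares to be read.

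The 9 genes thus varied within LP in different ways. From LP replicate 2 to LP replicate 3, CLDN7 differed by a factor of 13.9 (95% counting interval 6.84 to 33.1), KRT18 by 12.1 (3.82 to 61.2), CLDN9 by 10.5 (5.66 to 21.6) and EPCAM by 8.87 (7.92 to 9.96). KRT8 differed by a smaller factor of 2.40 (95% counting interval 1.83 to 3.17). For CDH1 and KRT19 the direction was turned, with ratios of 0.643 (95% counting interval 0.433 to 0.946) and 0.216 (95% counting interval 0.124 to 0.358). CLDN3 and CLDN4 were also highest in LP replicate 2, but their intervals included equal levels. These intervals cover counting error within single libraries only and say nothing of other sheep.

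**Figure D3:**
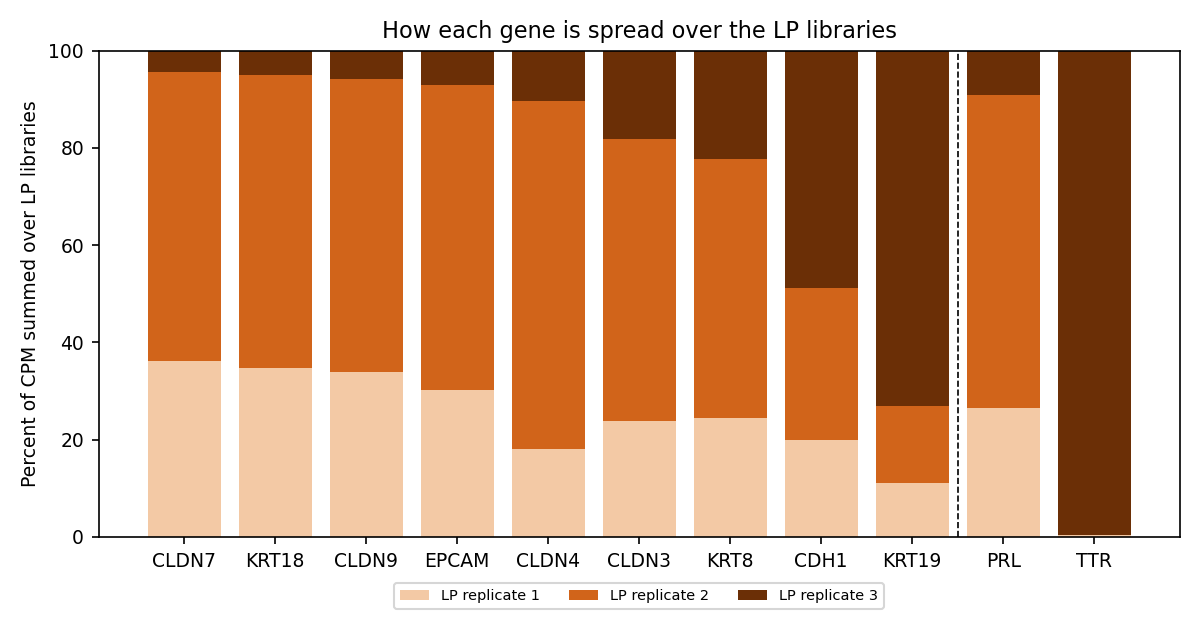
Share of each LP library in the CPM summed over the 3 LP libraries (y axis, percent), for the 9 genes and, right of the dashed line, for PRL and TTR. LP replicate 3 holds 4.27% of CLDN7, 7.07% of EPCAM, 22.2% of KRT8, 48.7% of CDH1 and 73.1% of KRT19.

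Markers of other tissues also differed among the libraries. All 18 anterior pituitary genes of the list had counts in LP, while 7 of the 18 were at 0 in all HP libraries. All 12 that were tested were higher in LP, beside 24.1% of all genes tested. Across the LP libraries PRL stood at 127278, 309369 and 43545 CPM in replicates 1, 2 and 3, the same order of libraries as in 7 of the 9 genes, with CDH1 and KRT19 as the exceptions. Of 15 choroid plexus genes, 2 (SLC4A5 and KCNE2) were at 0 throughout, and of 4 tested 0 passed in either direction. TTR made up 96.8% of the level of this list over all libraries, so its sums are largely those of TTR. The list summed to 57.1, 23.3 and 7925 CPM in LP replicates 1, 2 and 3 and to 119.8, 146 and 4088 CPM in HP replicates 1, 2 and 3. LP replicate 3 was also the highest LP library for KRT19 and CDH1. HP replicate 3, also high in the choroid plexus list, had 1 count each of KRT19, CDH1 and KRT8. CLDN2, a claudin of choroid plexus epithelium singled out after its values were seen, had 6 counts in LP replicate 3 and none elsewhere.

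Several further lists were also high in LP replicate 3. Pituitary stem and folliculostellate genes, 93.5% of whose level was S100B, an astrocyte gene too, summed to 10068 CPM in that library, to 765 and 436 CPM in LP replicates 1 and 2 and to 3182 to 4289 CPM in HP. Genes of meninges and fibroblasts, 78.7% of whose level was PTGDS, summed to 2157, 263 and 9190 CPM in LP and to 2090 to 2588 CPM in HP. Endothelial genes, at 273, 48.7 and 237 CPM in LP and 119.5 to 154 CPM in HP, were instead highest in LP replicate 1. Oligodendrocyte genes, 5 in number, summed to 4499 CPM in LP replicate 3, to 75.5 and 23.3 CPM in the other LP libraries and to 276 to 384 CPM in HP. CLDN19, a claudin known from Schwann cells of mice and singled out after its values were seen, had 375 counts in LP replicate 3 and 0 to 1 in every other library. Ependymal genes, 53.6% of whose level was TPPP3, summed to 271, 432 and 566 CPM in LP and to 62.1 to 83.9 CPM in HP. Of 7 ependymal genes tested 6 were higher in LP, beside 24.1% of all genes tested. Higher in LP were also 4 of 9 tested pituitary stem and folliculostellate genes, 4 of 8 of meninges and fibroblasts and 3 of 8 endothelial genes. In these 3 lists 1, 0 and 1 were higher in HP. None of the 5 oligodendrocyte genes passed in either direction. Of 9 neuronal genes 7 passed as higher in HP and none as higher in LP, beside 27.1% and 24.1% of all genes tested. Astrocyte genes, 78.3% of whose level was ALDOC, summed to 2799 to 3446 CPM in HP and 95.3 to 1519 CPM in LP. Of the 6 astrocyte genes tested, 1 was higher in HP, 0 were higher in LP and 5 did not pass. The part of any of these cell types in the levels of the epithelial genes was not tested.

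**Figure D4:**
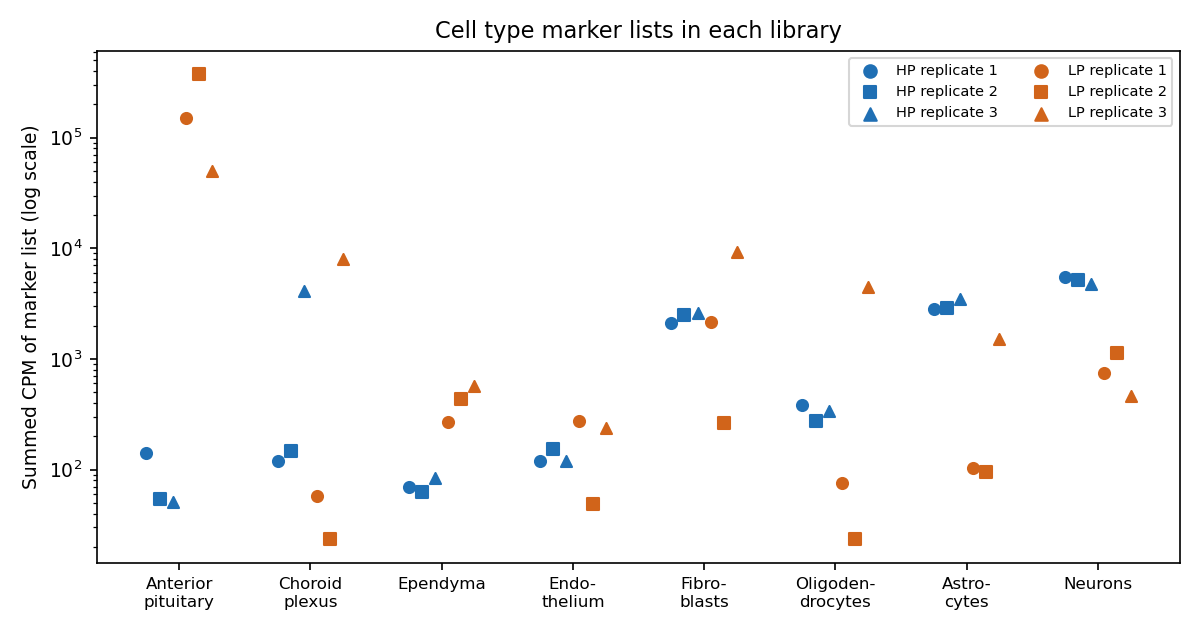
Summed CPM of 8 cell type marker lists in each library (y axis, log scale), with HP in blue and LP in orange. The pituitary list spans 49513 to 376139 CPM in LP and 51.3 to 139.6 CPM in HP. The choroid plexus list, 96.8% of it TTR, is highest in replicate 3 of both groups.

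Other genes of epithelia and of cell junctions were mostly scarce. Of 141 such genes, listed with earlier results of these data known, 134 were analysed, 117 had at least 1 count and 43 had enough for a test. Of these 43, 22 were higher in LP, 5 were higher in HP and 16 did not pass, where 24.1% and 27.1% of all genes tested were higher in LP and in HP. They had a median log2 difference of -1.78 beside 0.02 over all genes tested. Genes scarce in HP, such as CLDN1 with 0, 0 and 2 counts and ANXA3 with 2, 6 and 4, passed the filter only through LP. The genes were also listed with results known, so nothing is read from these shares or this median. The count in favour of LP was 14 without HP replicate 1, and the count in favour of HP was 3 without HP replicate 1 or HP replicate 2. The wider set of 189 genes that the deposited annotation places in the KEGG tight junction pathway, the 9 genes left out, had 38 of 107 tested genes higher in LP and 29 higher in HP, the latter at the 27.1% of all genes tested.

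Few keratin and claudin genes were measurable, and the totals given next include the keratin and claudin genes described above. Of 37 keratin genes with an annotated intermediate filament domain, 21 had a count and 5 were tested, and of 21 claudin genes 17 had a count and 5 were tested. Among listed keratin genes other than the 3 above, KRT10 was 3.43-fold higher in LP (edgeR adjusted p = 0.0161). Its call was lost without HP replicate 1 (edgeR adjusted p = 0.0630) or HP replicate 3 (0.0529). KRT7, another simple-epithelium keratin, went the other way. It counted 33, 37 and 46 in HP against 31, 11 and 2 in LP, a log2 difference of 0.96 that missed the threshold (edgeR adjusted p = 0.264) and passed it without LP replicate 1 (log2 2.02, edgeR adjusted p = 0.0376).

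Of 5 tested claudin-list genes other than CLDN9, CLDN1 alone passed. CLDN1, a claudin of the skin barrier and of many epithelia, counted 0, 0 and 2 in HP against 36, 24 and 21 in LP, at 13.4 ± 2.85 CPM (SD, n = 3) in LP. Its ratio of 56.3 has a 95% counting interval of 15.1 to 473 (edgeR adjusted p = 0.00139), and no HP count was left without HP replicate 3. Unlike CLDN7 and CLDN9, it was nearly level across the LP libraries, at 11.1 to 16.6 CPM. CLDN10 and CLDND1 missed the threshold (edgeR adjusted p = 0.295 and 0.141), and CLDN10 passed it without LP replicate 2 (edgeR adjusted p = 0.0250).

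**Figure D5:**
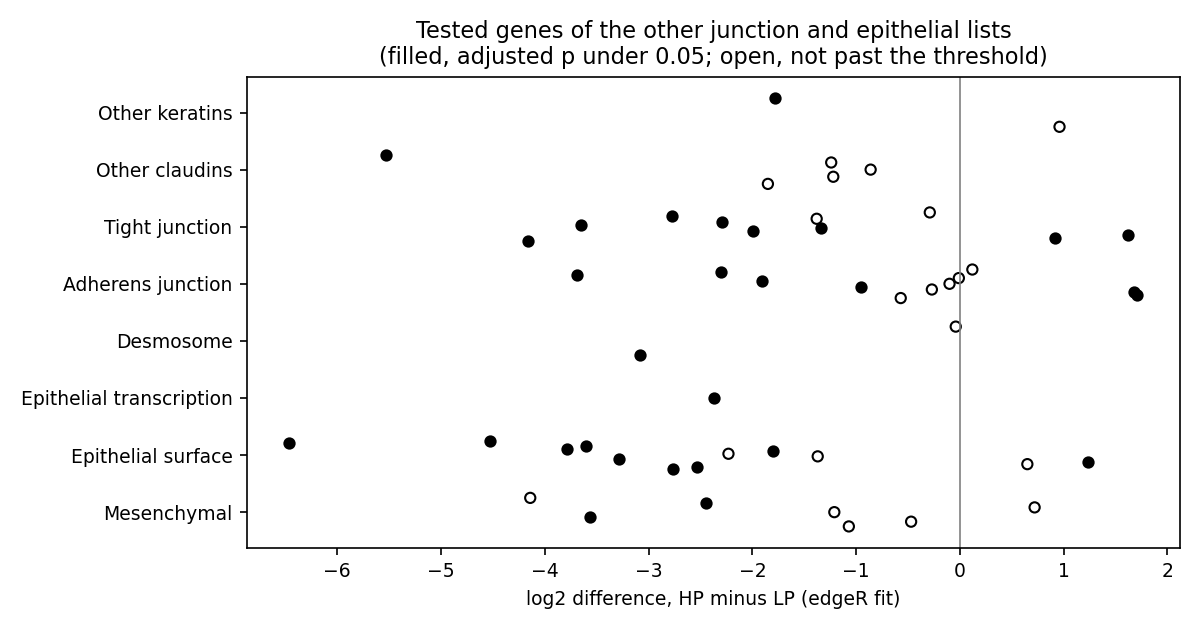
Fitted log2 difference, HP minus LP, of each tested gene in 8 lists of junction, epithelial and mesenchymal genes (x axis); filled points passed an adjusted p of 0.05. Points left of 0 are higher in LP, and 22 of the 43 epithelial and junction genes are filled on that side against 5 on the other.

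The calls in the junction lists are to be read against the 24.1% of all genes tested that were higher in LP and the 27.1% higher in HP. These calls are a description, with the lists chosen and filtered as stated above. In the tight junction list, 6 of 10 tested genes were higher in LP and 2 higher in HP. PARD3, a polarity scaffold, was 3.96-fold higher in LP and F11R, the adhesion molecule JAM-A, 6.83-fold, while PATJ, another polarity scaffold, was 3.07-fold higher in HP. Their edgeR adjusted p values were 7.89e-04, 0.00244 and 0.00281. In the adherens junction list, 4 of 11 tested genes were higher in LP and 2 higher in HP. CTNNA1, the alpha-catenin that links E-cadherin to actin, was higher in LP like CDH1. It counted 19, 11 and 24 in HP against 166, 206 and 136 in LP, a fold of 12.9 (edgeR adjusted p = 6.65e-04). PKP4 and SHROOM3, which encode proteins of cell contacts and apical constriction, were 3.20-fold and 3.27-fold higher in HP (edgeR adjusted p = 0.00186 and 0.00463).

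Of the desmosome list, 1 of 2 tested genes was higher in LP. This was DSG2, a desmosomal cadherin, counted at 4, 4 and 4 in HP against 11, 47 and 16 in LP (8.44-fold, edgeR adjusted p = 0.00850). Its log2 difference of -3.08 was -2.21 without LP replicate 2, and the call was lost with unfiltered TPM (log2 -0.73, limma adjusted p = 0.0632). DSC3 had a log2 difference of -0.04 (edgeR adjusted p = 0.912), which turned positive with library totals alone, without a low-count filter and without LP replicate 2. Among 19 transcription and splicing factors of epithelia, only KLF5 had enough counts. It was 5.16-fold higher in LP (edgeR adjusted p = 0.0123, log2 -2.37, or -2.99 without HP replicate 2) and was not called without HP replicate 1 (edgeR adjusted p = 0.0547).

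The list of epithelial surface and trafficking genes had the lowest median log2 difference of the 8 lists, -2.64. Of its 12 tested genes 8 were higher in LP and 1 higher in HP, beside 24.1% and 27.1% of all genes tested. SPINT2, a protease inhibitor known to protect EPCAM and claudin-7 from cleavage, counted 204, 263 and 254 in HP against 1343, 1567 and 607 in LP (6.76-fold). ANXA3, an annexin, was 23.1-fold and CD9, a tetraspanin, 13.8-fold higher in LP, with log2 differences of -4.53 and -3.79 that were -3.76 and -2.81 without LP replicate 3. The edgeR adjusted p was 0.00142 for SPINT2, 0.00335 for ANXA3 and 0.00411 for CD9. CD9 is also abundant in myelin. Its LP counts of 532, 205 and 1379 peaked in LP replicate 3, and the part of myelin in them was not tested. RAB25, a trafficking GTPase of epithelia named after its values were seen, had no count in HP and 25, 57 and 6 in LP, the order of CLDN7 and CLDN9.

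Of 7 tested genes of a mesenchymal counterpart list, 2 were higher in LP, 0 were higher in HP and 5 did not pass. Of all genes tested, 24.1% were higher in LP and 27.1% higher in HP. CDH11, a mesenchymal cadherin, was 5.48-fold higher in LP (edgeR adjusted p = 0.00522). VIM, the vimentin gene, counted 130, 380 and 414 in HP against 5070, 173 and 2625 in LP. Its log2 difference of -3.56 passed (edgeR adjusted p = 0.0245) and was -4.16 without LP replicate 2. The call was lost without LP replicate 1 (log2 -2.78, edgeR adjusted p = 0.0603) or any single HP library (0.0672 to 0.0934), with limma-voom (log2 -2.73, adjusted p = 0.0794) and with limma on TPM (0.0510 to 0.0834). ACTA2 missed the threshold (edgeR adjusted p = 0.0760). Its log2 difference of -4.14 rested on LP replicate 1, with 5725 counts there, and was 0.14 without that library. It passed without LP replicate 2 (edgeR adjusted p = 0.0193) or LP replicate 3 (0.0247).

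The mean profile of the 5 filtered genes over the 6 libraries was matched most closely by CALML4, a calmodulin-like gene, among 8957 named genes. Likeness was the root mean square difference between profiles of log2 CPM centred on each gene's mean, and CALML4 differed by 0.17. KRT8 differed from the mean profile by 0.42, EPCAM and CDH1 by 0.78, CLDN9 by 0.92 and KRT19 by 1.05, so the nearest other genes lay closer to the mean than any of the 5 did. Next after CALML4 came CD74 and ASIP (0.27 each), G0S2 (0.33), MNS1 (0.36), ARHGAP24 (0.37), OVAR-DRB1 (0.40) and FAM114A1 (0.41). CD74 encodes the invariant chain of MHC class II, and OVAR-DRB1 a class II beta chain. CALML4 counted 5, 12 and 5 in HP against 107, 178 and 97 in LP, or 49.3, 92.2 and 51.4 CPM in LP, where KRT8 stood at 44.7, 97.9 and 40.8 CPM.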

How the data were processed

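Full-length cDNA of 6 samples was sequenced by Nanopore. Reads were aligned with minimap2 2.17-r941, per the submitters' processing notes; the sources used here do not give the counter, genome build or annotation. Estimated counts, as deposited for each gene, carry no scaling between libraries, and 24.0% to 29.8% of the values in a library are not whole. TPM values, also deposited, are scaled to transcript length and sum to the same total in each library. Counts were rounded to whole numbers. In R 4.3.3, edgeR 4.0.16 (filterByExpr, TMM, quasi-likelihood test, two-sided, Benjamini-Hochberg adjustment over 13078 genes, threshold 0.05) compared HP with LP. DESeq2 1.42.0, limma 3.58.1 and other filters and scalings were alternatives, and the edgeR procedure was tested on simulated data. Leaving out a replicate kept the same 13078 genes.

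A gene at 0 in a group was given a bound against a floor of 3 counts in each library. Count ratios have exact 95% intervals, which cover counting error only, since amplified reads are not independent molecules. The design text names 3 sheep in each group but does not tie samples to animals, so p-values measure the spread between these samples.

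The 9 genes and all lists were chosen with earlier results of these data known. Listed genes scarce in HP could pass the filter only through LP, so the calls counted in each list are a description. Genes named beyond the 9 were the 3 tested genes with the smallest p in each pathway list and the 8 with the most similar profile; others are said to have been chosen after their values were seen. Summed levels of cell type lists leave out the 9 genes.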

Additional observations from a re-analysis of the deposited data

How the results depend on the processing

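No paired analysis was possible because the labels give the samples no replicate numbers that HP and LP share. Of the 9 genes, 5 were called higher in LP, 8 without a filter on low counts (beside 14.9% of 22526 genes) and 3 with the stricter filter of 20 counts. Their median log2 difference of -4.47 was -2.96 with TPM and a pseudocount of 1, with or without a filter. Leaving out single replicates gave 4 to 5 calls and a median from -5.61 (without HP replicate 2) to -4.43 (without HP replicate 1); CDH1 was the gene lost, without HP replicate 1. Of the other epithelial genes, 22 were called higher in LP, 11 with the stricter filter and 14 to 24 without single replicates, and 5 higher in HP, 3 to 7 without single replicates. DSC3, not called in any setting that tested it, reversed with library totals alone (0.22), without a filter (0.16) and without LP replicate 2 (0.05), with -0.24 to 0.05 without single replicates. ACTA2 reversed without LP replicate 1 (0.14), with -4.79 to 0.14 without single replicates. The cause of these changes was not tested, other than that stricter filters leave fewer genes to call. Library totals alone put 63.0% of calls on the HP side, against 52.9% with TMM, and the median of all genes at 0.27, and TPM with a pseudocount of 1 gave 38.4% and -0.27, so differences are relative to the scaling. Depth limits KRT18, CLDN3, CLDN4, CLDN7 and CLDN9, each with at most 5 counts in HP, where CLDN7 and CLDN9 have none and are given by bounds.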
